A study of Mus musculus with 15 samples.

Results

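Activity-regulated genes are transcribed within minutes to hours of strong neuronal firing, and 45 of them were followed here in the hippocampus of mice lacking 1 or both corticosteroid receptors in Emx1-expressing cells. The members were chosen by name as immediate-early and activity-induced genes, and were found through the RefSeq or other accession that the array gives for each probe. Of the 45 listed genes, 43 had a probe and all 43 were tested, among 22865 genes tested in all. Dusp5 and Vgf had no matched probe and were not analysed here.

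Synaptic calcium entry activates kinases that phosphorylate transcription factors already bound at these genes, such as CREB and SRF, so the first wave of transcription needs no new protein. Many products of that wave are themselves transcription factors (the AP-1, EGR and NR4A families), while others act at the synapse (Arc, Homer1) or switch the kinase pathways off again (the dual-specificity phosphatases). In the hippocampus these genes are widely used as markers of recent activity. Corticosterone acts in the same neurons through the high-affinity mineralocorticoid receptor (MR, gene Nr3c2) and the lower-affinity glucocorticoid receptor (GR, gene Nr3c1), which are both ligand-activated transcription factors.

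The samples were whole hippocampi of both hemispheres from male C57BL/6 mice about 2.5 months old, with total RNA labelled with Cy3 and hybridised 1 sample per array. The dflox controls (4 arrays) carried floxed alleles of both receptors, per the series' design text. Crossing floxed mice with Emx1-Cre, which recombines in the lineage of dorsal forebrain excitatory neurons and part of the glia, gave GREmx1-cre (4 arrays), which lack GR, MREmx1-cre (4 arrays), which lack MR, and GRMREmx1-cre (3 arrays), which lack both. As the design describes the crosses, a line lacking 1 receptor came from mice with that floxed allele alone, so it also differs from dflox in lacking the other floxed allele. Recombination in the Emx1 lineage leaves interneurons, microglia and vessels of the hippocampus unrecombined, and all cells contribute to a whole-tissue sample. In such bulk samples, fewer cells of a type and less RNA per cell cannot be told apart.

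Levels below are log2 intensities relative to the 75th percentile of the same array, so they compare arrays for 1 gene and not genes with each other. A gene is said to rise or fall only where its difference had a limma adjusted p below 0.05 (Benjamini-Hochberg, over all genes tested). The 75th percentile itself lay between 821.2 and 1027 intensity units on the 15 arrays, and no spot was saturated. Of the 43 members, 41 were well above background on all arrays, with Nr4a3 and Pim1 as the exceptions on 5 and 10 arrays. Markers of the hippocampal fields were present: 9 of 9 dentate granule, 6 of 6 CA1 and 6 of 7 tested CA2 and CA3 markers were above background on every array. The deleted gene Nr3c1 lay between 1.49 and 1.79 in dflox, -0.66 and -0.53 in GREmx1-cre and -0.08 and 0.09 in GRMREmx1-cre. In MREmx1-cre, where it is not deleted, Nr3c1 lay between 2.08 and 2.28, above all controls. The probe for Nr3c2 lay between -3.65 and -3.36 in dflox, -3.76 and -3.46 in MREmx1-cre and -4.01 and -3.71 in GRMREmx1-cre, so MREmx1-cre overlapped its controls there. In GREmx1-cre the Nr3c2 probe lay between -3.15 and -3.04, above all controls. The sources used here do not say whether the probe lies in the deleted part of Nr3c2, so it does not check the MREmx1-cre label. Each genotype had its own slide, and the effects of slide and genotype therefore cannot be told apart.

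The start regions of 6 members named often below are shown. Ptgs2 and Jun fell in both groups lacking MR, Gadd45b and Egr4 fell in MREmx1-cre, and Fos and Npas4 varied most among the controls. Each line runs 5′ to 3′ from 250 bases before to 50 after the RefSeq start (GRCm38.p6), with TGACG on either strand and TATAAA in capitals. TGACG is the shorter form of the CREB-binding element (CRE, TGACGTCA) and TATAAA the TATA box.
Ptgs2, chr1:150099781-150100080, plus strand: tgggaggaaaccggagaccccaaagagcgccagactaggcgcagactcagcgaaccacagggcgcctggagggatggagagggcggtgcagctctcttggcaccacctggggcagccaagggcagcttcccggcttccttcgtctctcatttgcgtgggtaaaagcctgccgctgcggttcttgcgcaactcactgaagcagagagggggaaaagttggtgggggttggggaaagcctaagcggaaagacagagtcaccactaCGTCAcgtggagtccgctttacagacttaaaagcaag
Gadd45b, chr10:80929841-80930140, plus strand: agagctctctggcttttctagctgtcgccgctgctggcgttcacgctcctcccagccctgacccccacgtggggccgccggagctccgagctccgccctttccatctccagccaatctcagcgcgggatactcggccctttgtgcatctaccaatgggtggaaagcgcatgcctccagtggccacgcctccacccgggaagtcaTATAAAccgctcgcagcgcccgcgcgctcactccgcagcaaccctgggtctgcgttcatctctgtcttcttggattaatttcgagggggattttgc
Egr4, chr6:85513540-85513839, minus strand: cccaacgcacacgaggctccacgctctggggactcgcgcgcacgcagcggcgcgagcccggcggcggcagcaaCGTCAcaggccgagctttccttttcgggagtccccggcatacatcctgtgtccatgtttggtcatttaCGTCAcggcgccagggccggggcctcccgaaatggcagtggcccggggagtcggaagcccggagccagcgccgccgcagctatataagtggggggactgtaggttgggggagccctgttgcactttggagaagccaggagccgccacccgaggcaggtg
Jun, chr4:95052173-95052472, minus strand: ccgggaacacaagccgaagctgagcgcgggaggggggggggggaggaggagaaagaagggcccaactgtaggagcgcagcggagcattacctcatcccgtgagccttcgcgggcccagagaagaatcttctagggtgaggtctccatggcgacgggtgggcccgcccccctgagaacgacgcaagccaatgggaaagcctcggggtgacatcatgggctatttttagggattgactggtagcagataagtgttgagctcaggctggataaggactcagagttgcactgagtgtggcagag
Fos, chr12:85473640-85473939, plus strand: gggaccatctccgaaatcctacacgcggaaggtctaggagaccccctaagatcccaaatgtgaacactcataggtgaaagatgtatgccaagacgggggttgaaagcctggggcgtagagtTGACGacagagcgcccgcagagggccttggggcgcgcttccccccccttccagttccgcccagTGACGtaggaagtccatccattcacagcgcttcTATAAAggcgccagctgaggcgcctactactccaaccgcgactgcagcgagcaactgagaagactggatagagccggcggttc
Npas4, chr19:4989922-4990221, minus strand: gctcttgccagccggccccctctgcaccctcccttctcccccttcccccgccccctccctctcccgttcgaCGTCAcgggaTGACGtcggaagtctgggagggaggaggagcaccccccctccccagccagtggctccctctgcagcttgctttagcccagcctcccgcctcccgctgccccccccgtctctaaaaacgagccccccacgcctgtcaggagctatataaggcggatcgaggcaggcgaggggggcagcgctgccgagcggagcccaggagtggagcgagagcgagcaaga

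Of the 45 members, 34 had a start region in the RefSeq table. The full TGACGTCA was in 6 of the 34 (17.6%), those of Maff, Btg2, Plk2, Arl4d, Scg2 and Pcsk1, against 2.03% of all genes with such a region. The shorter TGACG, which the full element contains and which was added after the sequences had been seen, was in 22 (64.7%) against 23.0% of all genes. It occurs on each strand in the Npas4 region and once in that of Ptgs2, and the Jun region holds neither it nor TATAAA. The EGR-family sequence GCGNGGGCG was in 8 of 34 (23.5%, against 6.27%), the E-box CACGTG in 6 (17.6%, against 8.09%), the AP-1 sequence TGANTCA in 1 (2.9%, against 8.97%) and TATAAA in 6 (17.6%, against 15.7%). The SRF-binding CArG box was in 2 (5.9%, against 1.81%). The half-site of the element that GR and MR bind, AGAACA, was in 4 (11.8%, against 21.3%), and its full palindrome was in 0 of 34 and in 0.0111% of all genes. Every motif was searched on both strands. Among the 10 genes with a start region that fell without MR, TGACGTCA and the CArG box were in 0, TGACG in 5 and AGAACA in 2. Among the 24 other members with a start region, TGACGTCA was in 6, the CArG box in 2, TGACG in 17 and AGAACA in 2. A match is a run of letters and not a bound site, and the window does not reach distal enhancers.

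Loss of MR was followed by lower levels of 11 of the 43 members and higher levels of 0. The genes that fell were the AP-1 factors Fosb, Fosl2, Jun and Atf3, the zinc finger factor Egr4, the regulators Csrnp1, Tiparp and Fbxo33, the stress sensor Gadd45b, the synaptic gene Arc and the prostaglandin synthase Ptgs2. Over all genes tested, 2.6% fell and 4.21% rose in this comparison. At an unadjusted p under 0.05, limma had 20 members lower and 2 higher, against 7.32% and 14.5% of all genes. The median difference of the members was -0.31, against 0.04 for all genes, and 32 of the 43 lay below 0 (41% of all genes). In MREmx1-cre, 11 members had all 4 arrays below all 4 dflox arrays and 1 had them all above, against 4.49% and 9.37% of all genes.

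Ptgs2 encodes cyclooxygenase-2, the inducible enzyme of prostaglandin synthesis in excitatory neurons. Ptgs2 read -2.08, -2.18, -2.45 and -2.23 on the dflox arrays, -2.52, -2.28, -2.62 and -2.62 in GREmx1-cre, -2.96, -3.01, -3.23 and -3.29 in MREmx1-cre and -3.4, -3.0 and -3.38 in GRMREmx1-cre. The 7 arrays of the groups lacking MR all lay below the 8 others, without overlap. MREmx1-cre stood at 54.0% of dflox (log2 difference -0.89, SE 0.117, limma adjusted p = 0.000921) and GRMREmx1-cre at 49.1% (-1.03, SE 0.127, adjusted p = 0.00026). GREmx1-cre differed from dflox by -0.28 (adjusted p = 0.221), with overlapping arrays. A second Ptgs2 probe gave -0.86 and -0.94 in the groups lacking MR.

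Jun, a core subunit of AP-1, had the same arrangement. Jun read 2.35, 2.29, 2.16 and 2.41 on the dflox arrays, 2.49, 2.44, 2.37 and 2.36 in GREmx1-cre, 1.69, 2.0, 1.75 and 1.92 in MREmx1-cre and 1.98, 1.93 and 1.68 in GRMREmx1-cre. Every array lacking MR was below every array that kept it. The difference from dflox was -0.46 in MREmx1-cre (SE 0.0849, adjusted p = 0.0067) and -0.44 in GRMREmx1-cre (SE 0.0917, adjusted p = 0.00634), with 0.12 in GREmx1-cre (adjusted p = 0.503).

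Gadd45b, a stress sensor that takes part in DNA demethylation and is induced by synaptic activity, differed from this pattern. Gadd45b stood at 0.74, 1.38, 1.3 and 1.33 on the dflox arrays, 0.91, 0.92, 0.98 and 0.95 in GREmx1-cre, 0.47, 0.54, 0.48 and 0.56 in MREmx1-cre and 0.92, 0.99 and 1.0 in GRMREmx1-cre. The 4 MREmx1-cre arrays were the lowest of all 15, while the 3 GRMREmx1-cre arrays lay close to those of GREmx1-cre and above the lowest control. MREmx1-cre was at 62.5% of dflox (-0.68, SE 0.11, adjusted p = 0.00321), and GRMREmx1-cre differed from dflox by -0.22 (adjusted p = 0.24). A second probe for Gadd45b gave -0.66 and -0.45. For GRMREmx1-cre against GREmx1-cre that probe gave -0.21 and the probe used 0.03.

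The falls of these 3 genes in MREmx1-cre passed the threshold under each of the 25 other settings run, which include leaving out any 1 array. Their adjusted p values over those settings ranged from 0.000284 to 0.0119 for Ptgs2, from 0.00231 to 0.0394 for Jun and from 1.16e-05 to 0.0477 for Gadd45b.

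**Figure D1:**
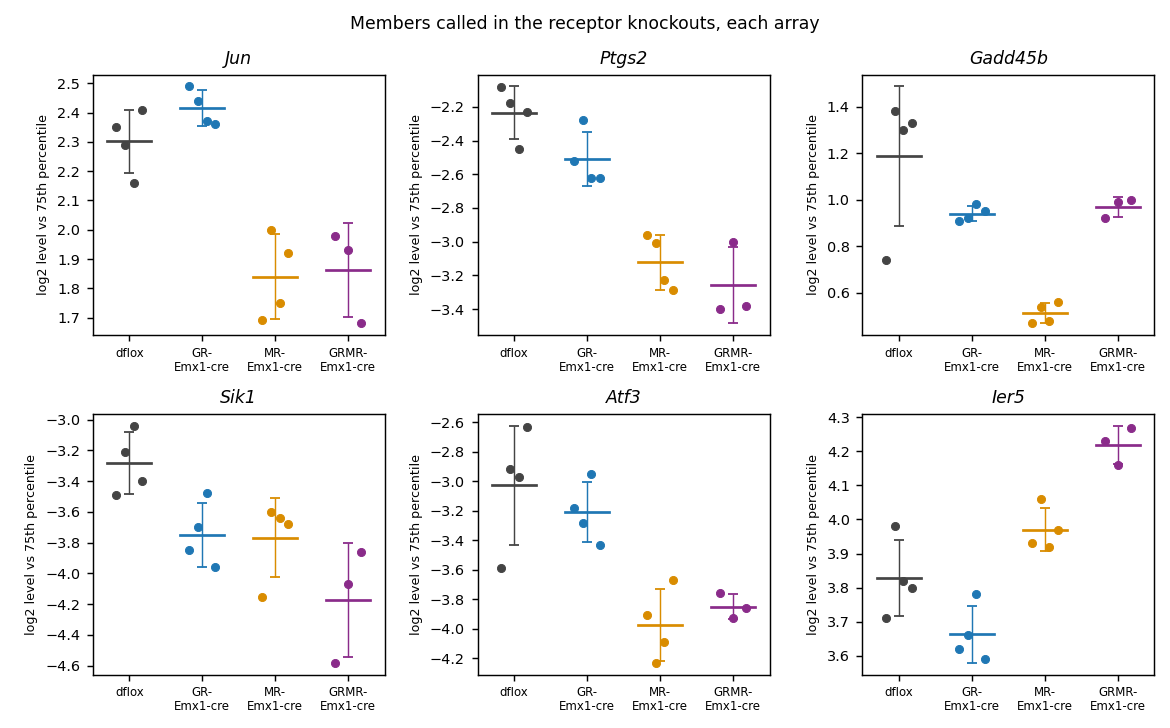
Log2 level relative to the array's 75th percentile (vertical axis, a separate scale for each gene) of 6 members on every array, by genotype; points are arrays, horizontal lines group means and error bars 1 SD. The groups lacking MR lie apart from the others for Jun and Ptgs2, MREmx1-cre has the 4 lowest arrays for Gadd45b, and GRMREmx1-cre is highest for Ier5.

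Atf3, a stress-induced member of the ATF and AP-1 group, read lower on all 7 arrays lacking MR. Atf3 read -3.59, -2.92, -2.97 and -2.63 on the dflox arrays, -3.18, -3.28, -2.95 and -3.43 in GREmx1-cre, -3.91, -4.23, -4.09 and -3.67 in MREmx1-cre and -3.76, -3.93 and -3.86 in GRMREmx1-cre. The highest of those 7 arrays, -3.67, lay just under the lowest control, -3.59, so the gap was narrow. MREmx1-cre was at 52.0% of dflox (-0.94, SE 0.179, adjusted p = 0.00805) and GRMREmx1-cre at 56.7% (-0.82, SE 0.194, adjusted p = 0.0122). The first call was lost when only MREmx1-cre and dflox entered the model (adjusted p = 0.0582), and the second without GRMREmx1-cre replicate 2 (adjusted p = 0.0516).

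Fosb, whose product pairs with Jun and whose shortened form accumulates with repeated activity, lay between -3.14 and -2.86 in MREmx1-cre and between -2.71 and -1.96 in dflox, with no overlap (-0.71, SE 0.171, adjusted p = 0.0277). Fosl2, another AP-1 subunit, lay between -1.66 and -1.12 against -1.03 and -0.39 (-0.57, SE 0.146, adjusted p = 0.0344). A second Fosl2 probe had the same sign in MREmx1-cre (-0.32) but gave 0.26 in GRMREmx1-cre, where the probe used gave -0.41, so the direction for Fosl2 without both receptors was not settled. Tiparp, an ADP-ribosyltransferase, lay between 0.26 and 0.47 against 0.66 and 1.16 (-0.53, SE 0.115, adjusted p = 0.0167). The arrays of these 3 genes did not overlap their controls in MREmx1-cre.

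Csrnp1, a nuclear protein first found as a target of AXIN1, and Fbxo33, a ubiquitin ligase subunit, fell in both groups lacking MR. Csrnp1 differed from dflox by -0.47 in MREmx1-cre (SE 0.125, adjusted p = 0.0396) and by -0.47 in GRMREmx1-cre (SE 0.135, adjusted p = 0.033). Fbxo33 had smaller differences, of -0.28 (SE 0.0636, adjusted p = 0.0186) and -0.23 (SE 0.0687, adjusted p = 0.0351). Neither gene overlapped dflox in either group, and a second Csrnp1 probe gave -0.46 and -0.34.

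Arc and Egr4 also passed the threshold in MREmx1-cre, but there dflox replicate 1 overlapped the knockout arrays. Arc encodes a capsid-like protein that drives the removal of AMPA receptors from synapses. Arc read 3.79, 5.14, 4.67 and 4.68 on the dflox arrays, 4.22, 4.2, 4.25 and 3.78 in GREmx1-cre, 3.89, 3.56, 3.75 and 3.34 in MREmx1-cre and 4.73, 4.52 and 4.23 in GRMREmx1-cre. The 4 MREmx1-cre values lay below 3 of the 4 controls, and dflox replicate 1, at 3.79, lay among them. The difference was -0.93 (SE 0.237, adjusted p = 0.0338), or 52.4% of dflox. Egr4, a zinc finger factor of the EGR family, lay between 2.84 and 3.19 in MREmx1-cre, against 3.17 in dflox replicate 1 and 3.56 to 3.96 in the other controls (-0.63, SE 0.137, adjusted p = 0.0167). The Egr4 call was lost when only these 2 groups entered the model (adjusted p = 0.0969).

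Leaving out single arrays ended several of these calls. Without any 1 of dflox replicates 2 and 4 or MREmx1-cre replicates 3 and 4 the calls of Fosb, Fosl2 and Arc were lost, as were those of Fosb and Arc without dflox replicate 3 or MREmx1-cre replicate 2, and that of Fosl2 without MREmx1-cre replicate 1. Over all single omissions the differences ranged from -0.86 to -0.61 for Fosb, from -0.67 to -0.42 for Fosl2, and from -1.19 to -0.74 for Arc. The Csrnp1 call was lost without any of 8 of the 15 arrays (-0.54 to -0.38): dflox replicates 1, 2 and 3, GREmx1-cre replicate 3, MREmx1-cre replicates 2, 3 and 4 and GRMREmx1-cre replicate 2. Tiparp was lost without MREmx1-cre replicate 4 (-0.61 to -0.44) and Fbxo33 without dflox replicate 4 or MREmx1-cre replicate 2 (-0.33 to -0.24). The count of members called was lowest, at 6, without MREmx1-cre replicate 4, and was 7 without MREmx1-cre replicate 2 or 3 or dflox replicate 2. It was 3 when only the 8 arrays of these groups entered the model.

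Markers of dentate granule and of CA2 and CA3 neurons moved with the same groups. Of 9 dentate granule cell markers, 5 fell in MREmx1-cre and 6 in GRMREmx1-cre, where 2.6% and 4.84% of all genes fell and 4.21% and 11.4% rose. Their mean level relative to all arrays lay between 0.15 and 0.61 in dflox, 0.37 and 0.70 in GREmx1-cre, -0.44 and -0.37 in MREmx1-cre and -0.78 and -0.56 in GRMREmx1-cre. Of 7 CA2 and CA3 markers, 4 and 5 fell in the groups lacking MR, and of 7 microglial markers, 2 and 4 rose. Of 6 CA1 markers, 1 fell and 1 rose in MREmx1-cre and 2 fell and 1 rose in GRMREmx1-cre (medians 0.00 and -0.04). Of 8 GABAergic interneuron markers, 0 passed in limma in either group (1 and 2 at an unadjusted p under 0.05). Their part in the falls of the members was not tested. Choroid plexus markers, which come from tissue beside the hippocampus, were at -4.34 in MREmx1-cre replicate 2 and between -0.47 and 1.26 on the other 14 arrays. Without that array the count in MREmx1-cre was 7 in place of 11: Fosb, Csrnp1, Fbxo33 and Arc lost their calls, and Ptgs2, Jun and Gadd45b kept theirs.

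Loss of GR alone gave no member that passed the threshold in limma: 0 of 43 rose and 0 fell, where 2.27% of all genes rose and 0.888% fell. At an unadjusted p under 0.05, 0 were higher and 20 lower, against 11.8% and 7.28% of all genes. Of the 43 members, 38 lay below 0 (44.3% of all genes), with a median of -0.26 against 0.02 for all genes. Only Egr3, Homer1 and Arl4d had all 4 GREmx1-cre arrays below all controls (3 members, where 5.02% of all genes did so), and 0 had them all above (7.68% of all genes). A second Egr3 probe gave 0.11 where the probe used gave -0.34, and the other Homer1 probes gave 0.01 and -0.09 against -0.20. The lower levels of Egr3 and Homer1 thus depend on the probe.

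The classical markers of recent activity did not pass without GR, and their controls were far apart. Fos, the AP-1 subunit most used as an activity marker, varied more among the controls than in any knockout. Fos read -1.61, 0.0, 0.32 and -0.64 on the dflox arrays, -1.68, -1.27, -1.19 and -1.99 in GREmx1-cre, -0.92, -1.15, -1.94 and -1.5 in MREmx1-cre and -0.63, -0.55 and -0.48 in GRMREmx1-cre. The dflox replicate 1 array lay among the single knockouts, and the other 3 controls lay above all 8 of those arrays. The difference was -1.05 in GREmx1-cre (SE 0.356, adjusted p = 0.135), -0.89 in MREmx1-cre (SE 0.356, adjusted p = 0.16) and -0.07 in GRMREmx1-cre (SE 0.385, adjusted p = 0.93). The 3 GRMREmx1-cre arrays were close together and above all 8 arrays of the single knockouts.

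Npas4, a neuron-specific factor that responds to calcium, was more variable still. Npas4 read -2.72, -0.61, -1.05 and -1.09 on the dflox arrays, -1.94, -2.22, -2.61 and -2.21 in GREmx1-cre, -1.45, -3.01, -2.97 and -2.54 in MREmx1-cre and -1.79, -1.51 and -2.85 in GRMREmx1-cre. Its differences from dflox were -0.88, -1.12 and -0.68 in GREmx1-cre, MREmx1-cre and GRMREmx1-cre, with adjusted p values of 0.332, 0.174 and 0.401. Every group overlapped every other for this gene.

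Egr1, an EGR factor tied to lasting synaptic change, spanned a smaller range. Egr1 read 3.24, 3.86, 3.68 and 3.71 on the dflox arrays, 3.12, 3.2, 3.5 and 3.14 in GREmx1-cre, 3.21, 3.34, 3.28 and 3.52 in MREmx1-cre and 3.52, 3.47 and 3.73 in GRMREmx1-cre. The knockout arrays overlapped the controls in each group, and the differences were -0.38, -0.29 and -0.05 (adjusted p = 0.132, 0.215 and 0.865). Egr1 lies on the chromosome of Nr3c1 at a distance of 82 tested genes, and the groups differ in floxed alleles of Nr3c1, whose part in its level was not tested.

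**Figure D2:**
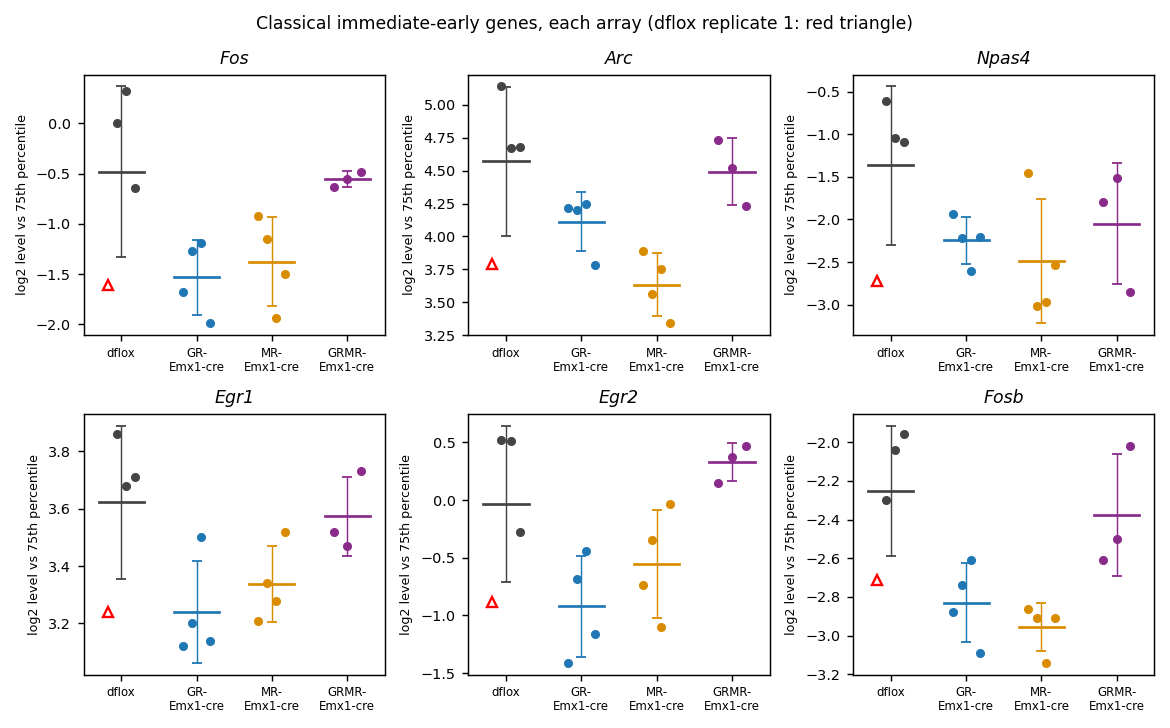
Log2 level relative to the array's 75th percentile (vertical axis, a separate scale for each gene) of 6 classical immediate-early genes on every array, with group means and 1 SD; the red triangle is dflox replicate 1. That control lies among the knockout arrays for each gene, and GRMREmx1-cre lies above both single knockouts on average.

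The controls lay further apart for these genes than for most: 34 of 43 had a dflox SD above the median of all genes. The median SD of the 43 members among the 4 dflox arrays was 0.264, against 0.122 for all genes, and it was 0.176 against 0.121 in GREmx1-cre, 0.168 against 0.13 in MREmx1-cre and 0.124 against 0.102 in GRMREmx1-cre. The members with the largest dflox SD were Npas4 (0.927), Fos (0.852), Egr2 (0.678) and Arc (0.564), and Homer1 had the smallest (0.0484). The arrays did not contribute to it equally. Replicate 1 of dflox was the lowest control for 29 of 43 members (67.4%), where it was the lowest for 19.3% of all genes, and it lay below the group mean for 38.

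The size of the gap differed between members. Replicate 1 lay below the mean of the other 3 controls by 1.8 for Npas4, 1.51 for Fos, 1.13 for Egr2, 1.04 for Arc and 0.74 for Atf3 on the log2 scale. It did not lie lower for Jun (0.06 above), Plk2 (0.17 above) or Ptgs2 (0.21 above). The same array had the highest red blood cell marker level of all 15 (0.77, with the others between -0.76 and 0.30). Its choroid plexus level of 1.03 was close to that of dflox replicate 3 (1.26), where members were not low. Its dentate granule level of 0.42 lay between those of the other controls. The part of these tissues in the low values was not tested. By the count of members at which an array was lowest in its group, the next was GREmx1-cre replicate 4, the lowest of its group for 21 of 43 members, against 27.4% of all genes.

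**Figure D3:**
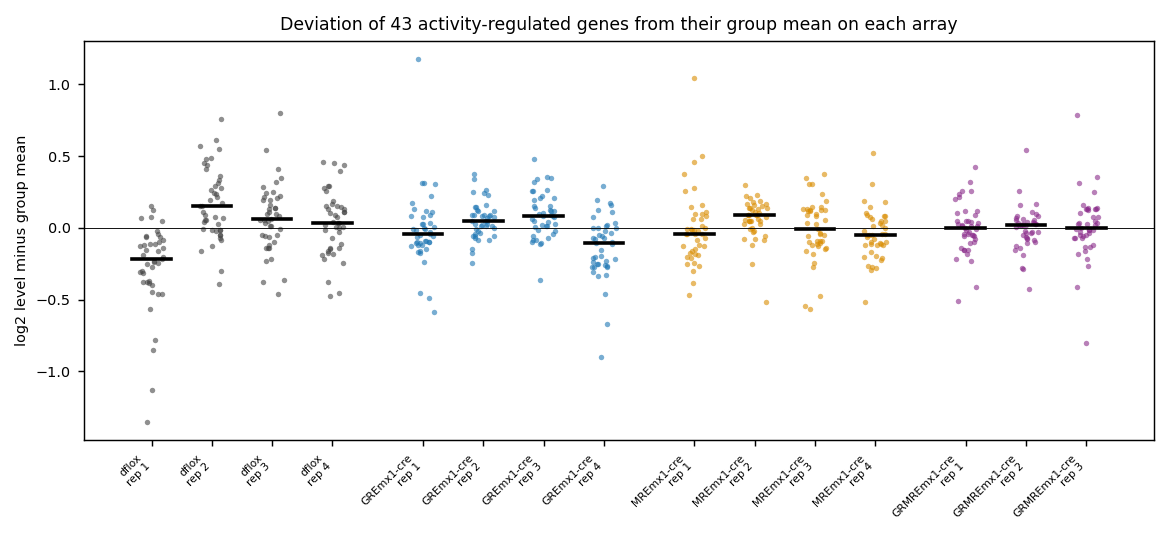
Deviation of each of 43 members from its own group mean (vertical axis, log2) on each of the 15 arrays; a point is 1 gene and the bar the median. On dflox replicate 1 the median is -0.22 and 38 of 43 points lie below 0.

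The array dflox replicate 1 was singled out for its low values in these members. Leaving it out therefore raises the control mean of most of them and can lower their spread. Calls gained that way follow in part from the choice of array and are no separate support for a fall. Without dflox replicate 1 the picture after GR loss changed, and the values are given for that reason. In GREmx1-cre 6 members then fell (1 did without dflox replicate 4): Fos (-1.43, SE 0.275, adjusted p = 0.0281), Fosb (-0.73, adjusted p = 0.0345), Egr1 (-0.51, adjusted p = 0.0355), Egr4 (-0.51, adjusted p = 0.0281), Trib1 (-0.53, adjusted p = 0.0382) and Gadd45b (-0.40, adjusted p = 0.00224). Of all genes, 0.56% fell and 1.49% rose in that fit. In MREmx1-cre 13 members fell (1.74% of all genes fell and 2.69% rose), with Fos (-1.27, adjusted p = 0.0253), Junb (-0.57, adjusted p = 0.0156) and Npas4 (-1.57, adjusted p = 0.0423) added and Csrnp1 lost (adjusted p = 0.05). In GRMREmx1-cre 10 members passed (3.5% of all genes fell and 9.22% rose), with Egr4 (-0.46, adjusted p = 0.014) and Gadd45b (-0.37, adjusted p = 0.000816) added. No label sets this control apart from the others, so the values with all 4 controls are the ones reported elsewhere.

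Loss of both receptors gave 7 members that fell and 1 that rose, where 4.84% of all genes fell and 11.4% rose. Ptgs2, Jun, Atf3, Csrnp1 and Fbxo33 fell as described, and Sik1 and Arl4d joined them. The median over the 43 members was -0.12 (all genes 0.03), with 28 below 0 (43.2% of all genes). By role and by the probes used, all 7 AP-1 factors lay below 0 there. So did 4 of 7 zinc finger and nuclear receptor factors and 4 of 8 kinase and phosphatase genes. Among the AP-1 factors, second probes gave 0.26 for Fosl2 and 0.08 for Junb, against -0.41 and -0.12, so those 2 signs depend on the probe. In GRMREmx1-cre, 9 members lay wholly below dflox and 2 wholly above (10.1% and 19.3% of all genes).

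Sik1, a salt-inducible kinase that restrains CREB coactivators, was lowest without both receptors. Sik1 read -3.49, -3.21, -3.04 and -3.4 on the dflox arrays, -3.85, -3.7, -3.48 and -3.96 in GREmx1-cre, -4.15, -3.6, -3.64 and -3.68 in MREmx1-cre and -4.58, -4.07 and -3.86 in GRMREmx1-cre. All 3 GRMREmx1-cre arrays lay below every control and reached into the range of both single knockouts. The difference from dflox was -0.88 (SE 0.185, adjusted p = 0.00634), with -0.46 in GREmx1-cre (adjusted p = 0.167) and -0.48 in MREmx1-cre (adjusted p = 0.116). The interaction of both losses was 0.06 (adjusted p = 0.936). Arl4d, a small GTPase of the ARF family, differed by about the same in the 3 knockouts: -0.66 (adjusted p = 0.0648), -0.62 (0.0533) and -0.62 (0.0432). All 11 knockout arrays of Arl4d lay below every control, yet the call in GRMREmx1-cre was lost without any of 13 arrays (all but dflox replicates 1 and 4), with differences from -0.78 to -0.41.

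Ier5, a regulator of heat shock factor activity, was the 1 member that rose. Ier5 read 3.71, 3.98, 3.82 and 3.8 on the dflox arrays, 3.62, 3.66, 3.78 and 3.59 in GREmx1-cre, 3.93, 4.06, 3.92 and 3.97 in MREmx1-cre and 4.23, 4.16 and 4.27 in GRMREmx1-cre. The 3 GRMREmx1-cre arrays lay above all 12 others. Ier5 was at 131% of dflox (0.39, SE 0.0672, adjusted p = 0.00204) and 147% of GREmx1-cre (0.56, SE 0.0672, adjusted p = 0.000275). Both calls held under the 25 other settings run. The count of 8 members called against dflox fell to 4 without GRMREmx1-cre replicate 2 and to 5 without GRMREmx1-cre replicate 3 or dflox replicate 2. Jun, Ier5, Sik1 and Ptgs2 kept their calls in each of the 25. Csrnp1 lost its call without any 1 of dflox replicates 2 and 3 or GRMREmx1-cre replicates 2 and 3 (-0.53 to -0.37), and Fbxo33 without any 1 of dflox replicates 2 and 4 or any GRMREmx1-cre array (-0.26 to -0.19).

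**Figure D4:**
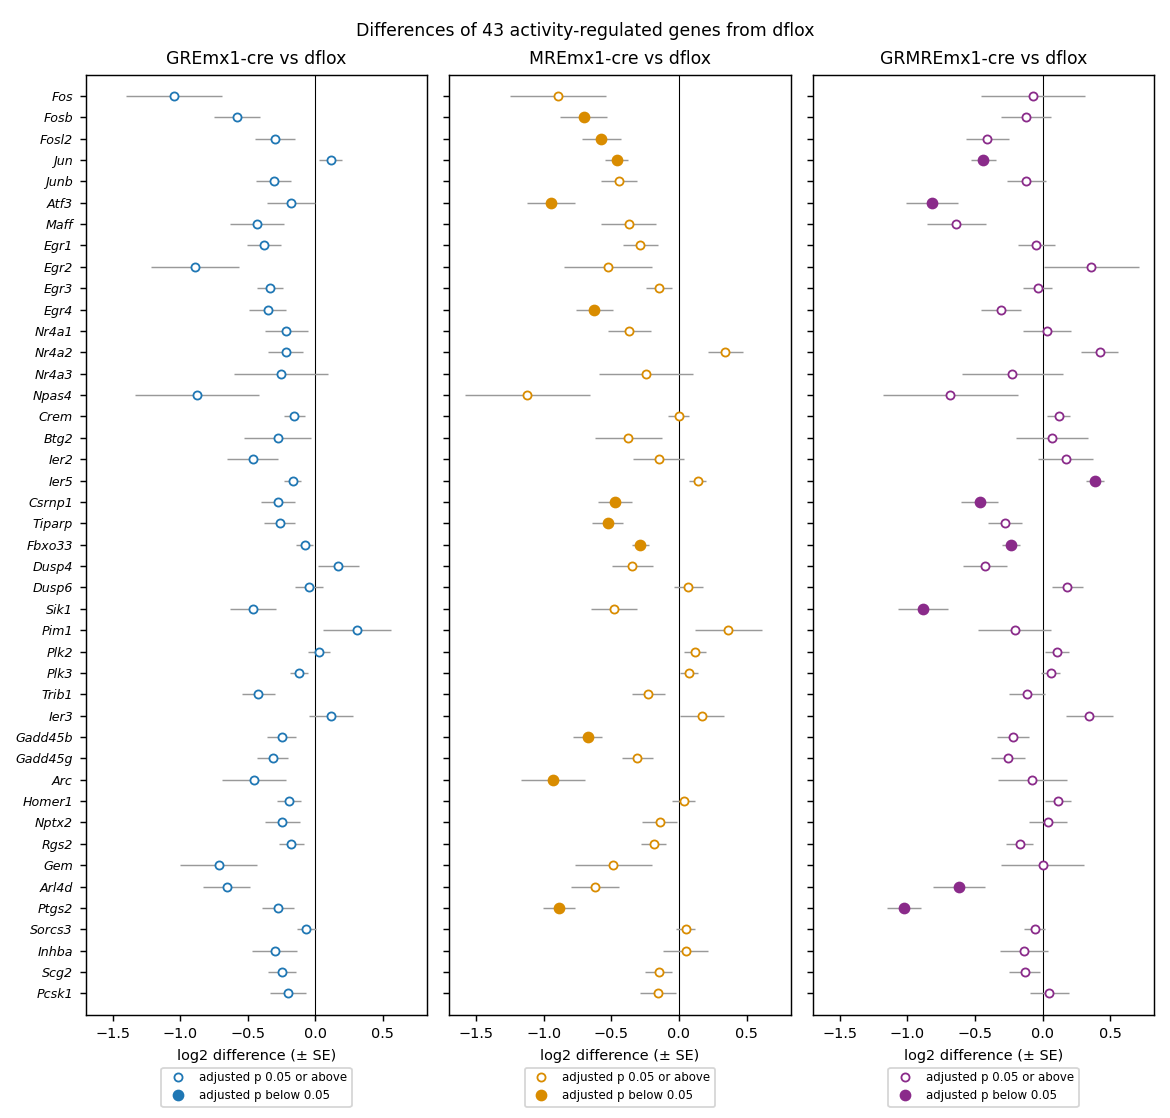
Log2 difference from dflox (horizontal axis, bars 1 SE) of each of the 43 members in each knockout, ordered by role from AP-1 factors at the top to secreted proteins at the bottom; filled points had an adjusted p below 0.05. Filled points number 0 in GREmx1-cre, 11 in MREmx1-cre and 8 in GRMREmx1-cre.

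Set against GREmx1-cre, mice lacking both receptors also lack MR, and here 4 members were lower and 6 higher, where 6.91% of all genes were lower and 9.23% higher. The lower ones were Ptgs2 (-0.75, SE 0.127, adjusted p = 0.002), Jun (-0.55, SE 0.0917, adjusted p = 0.00181), Atf3 (-0.64, adjusted p = 0.041) and Dusp4 (-0.60, adjusted p = 0.0272). Dusp4, a nuclear phosphatase of ERK, lay between -2.14 and -1.75 in GRMREmx1-cre and between -1.63 and -1.18 in GREmx1-cre. The higher ones were Ier5, Egr2, Nr4a2, Ier2, Homer1 and Crem. In all, 5 members lay wholly below and 12 wholly above GREmx1-cre (12.7% and 17.1% of all genes).

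Nr4a2, an orphan nuclear receptor, lay above all controls in both groups lacking MR but passed the threshold against dflox in neither. Nr4a2 read 2.53, 2.94, 2.72 and 2.95 on the dflox arrays, 2.44, 2.94, 2.57 and 2.31 in GREmx1-cre, 3.12, 3.27, 3.04 and 3.09 in MREmx1-cre and 3.17, 3.11 and 3.35 in GRMREmx1-cre. The 3 GRMREmx1-cre arrays lay above all GREmx1-cre and dflox arrays (0.64 above GREmx1-cre, SE 0.14, adjusted p = 0.00854), and the 4 MREmx1-cre arrays lay above all dflox arrays (0.34, adjusted p = 0.137). The difference of GRMREmx1-cre from dflox was 0.42 (adjusted p = 0.0576). Egr2, a zinc finger factor, had the largest difference. Egr2 read -0.88, 0.52, 0.51 and -0.28 on the dflox arrays, -1.41, -0.68, -0.44 and -1.16 in GREmx1-cre, -0.74, -0.35, -1.1 and -0.03 in MREmx1-cre and 0.15, 0.37 and 0.47 in GRMREmx1-cre. GRMREmx1-cre lay above both single knockouts without overlap and within the range of the controls (1.25 above GREmx1-cre, SE 0.351, adjusted p = 0.0293).

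Ier2, a nuclear immediate-early protein, was 0.64 higher (SE 0.203, adjusted p = 0.0498), lying between -0.18 and 0.15 against -0.91 and -0.28. Ier2 is 55 tested genes from Nr3c2 on chromosome 8, and by the crosses described GREmx1-cre lacks the floxed Nr3c2 allele that GRMREmx1-cre carries, so the allele's region and the loss of MR cannot be told apart. Junb, 71 tested genes from Nr3c2, has the same limit. Crem, whose product includes repressors of CREB targets, was 0.28 higher (SE 0.0841, adjusted p = 0.0414), and its 4 other probes above background gave 0.15 to 0.25. Homer1, a scaffold of the postsynaptic density, was 0.31 higher (SE 0.0952, adjusted p = 0.0437). Its other probes, designed on another RefSeq transcript, gave -0.17 and -0.04, so the sign for Homer1 depends on the probe.

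Of these 10 members, Ptgs2, Jun, Ier5 and Nr4a2 kept the call in each of the 25 other settings run. Egr2 lost it without GREmx1-cre replicate 1 or 4 or any GRMREmx1-cre array (1.09 to 1.41), and Dusp4 without GREmx1-cre replicates 1, 2 or 3 or GRMREmx1-cre replicates 2 or 3 (-0.70 to -0.50). Atf3 lost it without dflox replicates 2 or 3, GREmx1-cre replicates 1, 2 or 3 or any GRMREmx1-cre array (-0.71 to -0.55), and Crem without dflox replicate 3, GREmx1-cre replicates 1, 2 or 4 or any GRMREmx1-cre array (0.24 to 0.31). When arrays were left out singly, Ier2 kept it only without dflox replicates 1 or 2, GREmx1-cre replicate 3 or MREmx1-cre replicate 1 (0.53 to 0.74). Among the same omissions, Homer1 kept it only without MREmx1-cre replicates 1, 2 or 3 or GRMREmx1-cre replicate 1 (0.19 to 0.42). With no filter on dim probes, or with the replicate block, Atf3, Crem, Ier2 and Homer1 all lost the call. Median scaling, or the mean of the gene's probes, ended those of Crem, Ier2 and Homer1. Normexp ended those of Atf3 and Ier2, and quantile normalization that of Ier2. The count of 10 members dropped to 4 without GREmx1-cre replicate 1 or GRMREmx1-cre replicates 2 or 3, to 5 without GREmx1-cre replicate 2 and to 6 without GREmx1-cre replicate 4 or dflox replicate 3. In GREmx1-cre replicate 1, thalamus and habenula markers were at 0.84 (other arrays -0.23 to 0.14). Striatum and neocortex markers were at -0.47 there (other arrays -0.19 to 0.40). Of 8 striatum and neocortex markers 3 were higher in GRMREmx1-cre than in GREmx1-cre, as were 2 of 7 thalamus and habenula markers (9.23% of all genes). The part of these tissues in the calls was not tested.

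Set against MREmx1-cre, mice lacking both receptors had 0 members higher and 0 lower in limma, where 2.35% of all genes were higher and 0.625% lower. At an unadjusted p under 0.05, 7 were higher and 0 lower, against 10% and 7.19% of all genes. Of the 43 members, 34 lay above 0 (50.4% of all genes; median 0.12, all genes 0.00), and 10 had all 3 GRMREmx1-cre arrays above all 4 MREmx1-cre arrays while 0 lay wholly below (9.99% and 7.12% of all genes). Gadd45b was 0.46 higher (adjusted p = 0.0613) and Arc 0.86 higher (SE 0.256, adjusted p = 0.0967). A second Gadd45b probe gave 0.21. Without dflox replicate 1 both Gadd45b and Arc passed, at adjusted p values of 0.00051 and 0.0264, with unchanged differences. That control is not part of this comparison and enters only through the shared estimate of the spread. It was picked for its low values in the members, so leaving it out can lower that spread. These 2 calls follow in part from the choice and are no separate support. The count was 1 without dflox replicate 2.

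The interaction asks whether the joint difference departs from the sum of the single ones, and 2 members rose above that sum while 0 fell below it, where 0.512% and 0.778% of all genes did. At an unadjusted p under 0.05, limma had 19 members above the sum and 1 below, against 7.48% and 9.5% of all genes. Fosb stood 1.16 above the sum (SE 0.251, adjusted p = 0.0465): its single differences were -0.58 and -0.71 and the joint one -0.12. Ier5 stood 0.42 above it (SE 0.0916, adjusted p = 0.0465), with single differences of -0.17 and 0.14 and a joint one of 0.39. Larger estimates that did not pass were those of Fos (1.87, SE 0.524, adjusted p = 0.0997), Egr2 (1.78, adjusted p = 0.0881), Npas4 (1.32, adjusted p = 0.351) and Arc (1.31, SE 0.348, adjusted p = 0.0848). Gadd45b (0.71) had an adjusted p of 0.0543, and its second probe gave 0.45. Over the members 38 of 43 estimates were above 0 (48.2% of all genes), with a median of 0.37 against -0.01 for all genes. Each estimate contains the dflox mean, so all 43 share the same 4 controls.

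For Ptgs2 and Jun the interactions were 0.14 (95% interval -0.24 to 0.51, adjusted p = 0.739) and -0.09 (-0.36 to 0.18, adjusted p = 0.765). The interaction calls depended on single arrays. The count was 8 without dflox replicate 1, when Fos (2.25, adjusted p = 0.0271), Egr1 (0.75, adjusted p = 0.0476), Egr2 (2.06, adjusted p = 0.0483), Egr4 (0.83, adjusted p = 0.0235), Gadd45b (0.86, adjusted p = 0.000383) and Arc (1.57, adjusted p = 0.0194) joined. That array was picked for its low values in the members, so these gains follow in part from the choice. The count was 0 or 1 without any of the other 14 arrays, and 0 with scaling to the median in place of the 75th percentile or with no filter on dim probes. When arrays were left out singly, the Fosb call was kept only on omitting the replicate 1 array of dflox, MREmx1-cre or GRMREmx1-cre (estimates from 0.98 to 1.31). The Ier5 call was kept only without dflox replicate 1, GREmx1-cre replicate 3 or MREmx1-cre replicate 2 (0.37 to 0.46).

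**Figure D5:**
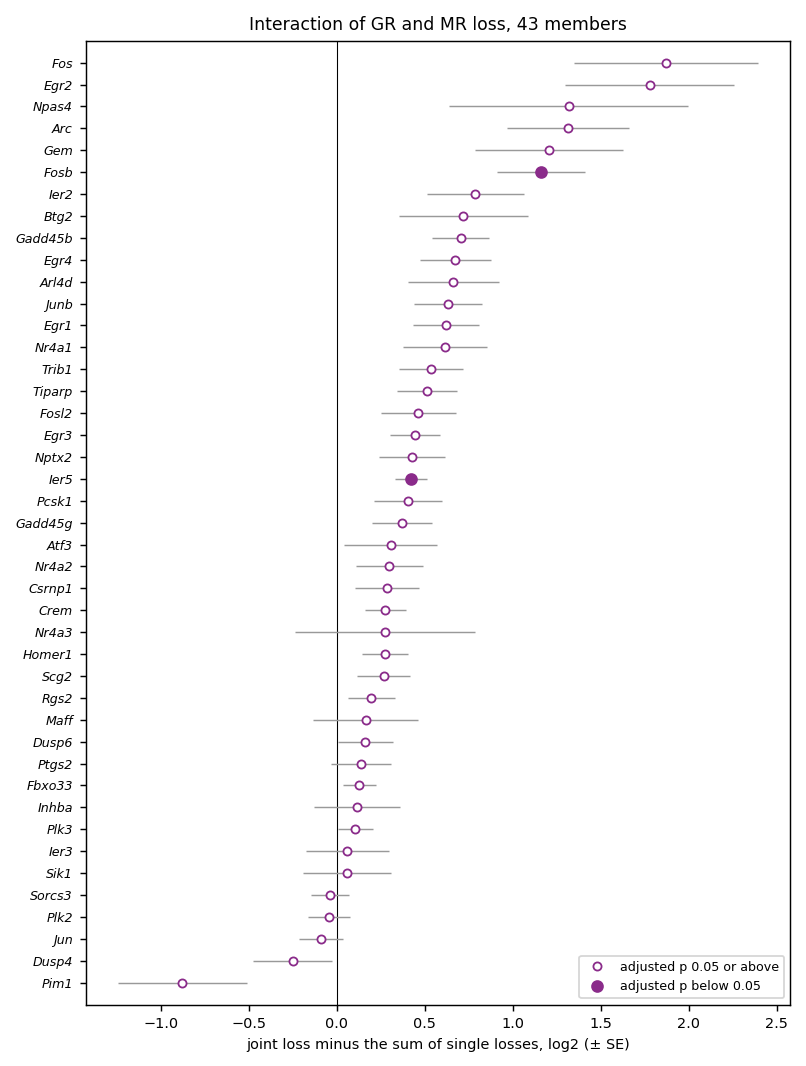
Joint difference minus the sum of the single differences (horizontal axis, log2, bars 1 SE) for each of the 43 members, sorted; filled points had an adjusted p below 0.05. Of the 43 points 38 lie above 0, and Fosb and Ier5 are the filled ones.

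Single and joint loss can also be set side by side by group means. The mean of GRMREmx1-cre lay above those of both single knockouts for 28 of 43 members (65.1%; 38% of all genes) and below both for 5. Both single knockouts lay below dflox for 30 members, and in 22 of these (73.3%) the joint mean was above both, as it was in 42.3% of such genes over all. For Fos, Arc and Egr1 the joint mean stood at 95.3%, 95% and 96.9% of dflox, where the single knockouts stood at 48.3% and 53.8%, 72.9% and 52.4%, and 76.8% and 82.0% (GREmx1-cre first). Npas4 did not come as near: its joint mean stood at 62.3% of dflox, and its single knockouts at 54.4% and 45.9%. The intervals of the joint differences (95%) were -0.90 to 0.76 for Fos, -0.63 to 0.48 for Arc, -0.35 to 0.25 for Egr1 and -1.76 to 0.40 for Npas4. The Fos interval reaches the difference seen in MREmx1-cre (-0.89). These comparisons share control arrays and are descriptions.

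By role, 4 of the 7 AP-1 factors fell after MR loss (median -0.57), where 2.6% of all genes fell, and all 7 lay below 0. Of these 4, Jun alone kept its call in each of the 25 other settings. Fosb lost it in 7, Fosl2 in 8 and Atf3 in 1. Of the 7 zinc finger and nuclear receptor factors 1 fell (median -0.29), of 8 other transcription regulators 3 (-0.33), of 2 stress sensors 1 and of 8 synaptic and signalling effectors 2 (-0.34). Of the 8 kinase and phosphatase feedback genes and the 3 secreted or secretory proteins none passed the threshold in MREmx1-cre in limma (0 of 11, medians 0.07 and -0.15, with 2 of the feedback genes lower at an unadjusted p under 0.05). Without both receptors, 2 AP-1 factors, 2 other regulators, Sik1 and 2 effectors fell. Members of 1 role with no call in any comparison include Dusp6, Plk2, Plk3, Pim1, Ier3 and Trib1 among the feedback genes, Rgs2, Nptx2, Gem and Sorcs3 among the effectors, and Inhba, Scg2 and Pcsk1 among the secreted proteins. The remaining members with no call were Fos, Junb, Maff, Egr1, Egr3, Nr4a1, Nr4a3, Npas4, Btg2 and Gadd45g, whose differences from dflox ran from -1.12 to 0.07 in the 3 knockouts.

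Around the members, lists of the machinery that drives them were examined. For comparison with the lists here and below, 0.888% of all genes fell and 2.27% rose without GR. Without MR 2.6% fell and 4.21% rose, and without both 4.84% fell and 11.4% rose. Counts of 1 or 2 in a list of about 20 are near these shares in the joint knockout. Of 20 tested activity-dependent transcription factors and coactivators, 0 passed in limma after loss of GR (5 at an unadjusted p under 0.05) or of MR (3), and 1 rose and 1 fell after loss of both: Nfatc4 (0.59, adjusted p = 0.00435), a calcineurin-dependent factor, and Mrtfa (-0.52, adjusted p = 0.00405), an SRF coactivator. Of 22 kinases and phosphatases of activity signalling, 1 fell without GR, 2 without MR and 4 without both, and 2 rose without both. The falls without both were Camkk1 (-0.64, adjusted p = 0.00043), Camk2b (-0.59, adjusted p = 0.0023), the adenylyl cyclase Adcy1 (-0.98, adjusted p = 0.00419) and Camk2a (-0.54, adjusted p = 0.00688). Of 11 further MAPK phosphatases and feedback inhibitors, 0 passed without GR (3 at an unadjusted p under 0.05), 1 rose (Dusp2, 0.50, adjusted p = 0.0112) and 1 fell (Spry1, -0.34, adjusted p = 0.0231) without MR, and 2 rose and 1 fell without both.

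Of 28 other activity-induced genes, 0 passed without GR (3 higher and 9 lower at an unadjusted p under 0.05), 2 rose and 2 fell without MR, and 4 rose and 3 fell without both. The neuropeptide precursors moved in opposite directions without MR: Cort rose (1.09, adjusted p = 0.00496) and Penk fell (-0.79, adjusted p = 0.0221). The pentraxin Nptx1 fell (-0.46, adjusted p = 0.0233), whereas the member Nptx2 differed by -0.14 (adjusted p = 0.57). Without both receptors Bdnf, the neurotrophin most studied as an activity target, was -0.34 from dflox (adjusted p = 0.0471).

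Some genes are induced by both activity and corticosteroids. Of 11 such genes outside the members, 2 fell without GR, 7 without MR and 8 without both, and 1 rose without both. Errfi1, a feedback inhibitor of EGF receptor signalling, fell in all 3 knockouts (-0.36, -0.73 and -0.78, adjusted p = 0.0254, 0.000251 and 0.000114). Sgk1, a kinase known as a corticosteroid target, fell in all 3 as well (-0.83, -0.71 and -1.09, adjusted p = 0.0261, 0.0322 and 0.00243). Rasd1, a dexamethasone-induced Ras protein, fell without MR (-1.58, adjusted p = 0.000867) and further without both (-3.00, adjusted p = 1e-05). Fkbp5, a co-chaperone of the receptors, also fell without MR (-1.49, adjusted p = 0.00144) and without both (-1.83, adjusted p = 0.000269). Rasd1 was lower in the joint knockout than in MREmx1-cre (-1.42, adjusted p = 0.00449). Of the 43 members 0 were called in that direction (1 with the replicate block), where 0.625% of all genes were.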

How the data were processed

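15 hippocampal RNA samples of mice were hybridised to Agilent 1-colour mouse arrays, and the authors deposited 1 scanner file per array, for which the submitters' processing notes name Agilent Feature Extraction 12.0. Each spot has, per the file headers, a background-corrected processed signal, an intensity in arbitrary units, and flags (other values, 0 or 1) for well above background, saturation and outliers. The value table that the authors deposited equals these intensities at all 45018 spots of each array. Of 45018 spots, 43379 were not controls.

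The log2 intensity minus the array's 75th percentile was used, leaving out 1281 outlier spots over all arrays and averaging spots of a probe. Of 41174 probes, 28223 had 1 gene symbol through the accession of the array design (RefSeq table of GRCm38.p6) and 12951 had none, which were tested under their accession. Probes flagged as above background on 3 or more arrays were kept, with the brightest probe per gene, giving 22865 genes (15939 with a symbol). Groups were compared in 1 limma 3.58.1 model (R 4.3.3) over the 15 arrays with Benjamini-Hochberg adjustment at 0.05, which was tested on simulated data. Array number limits the precision. The titles number the replicates, and nothing states what the numbers stand for or that arrays are separate animals, so p-values measure the spread between these arrays.

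The members and lists were chosen with earlier results of these data known. Members called in at least 1 comparison, and Fos, Arc, Egr1 and Npas4, are given in full, and from each other list at most the 4 called genes with the smallest adjusted p per comparison. Alternatives covered scaling, background correction, filters, probe choice, the arrays in the fit, a replicate block and leaving out each array. The files hold no mean signal, so normexp (offset 50) used the median signal. Promoter motifs are matches to RefSeq sequence, and TGACG was added after the sequences were seen.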

Additional observations from a re-analysis of the deposited data

Results flagged for a closer look

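Among the 129 pairs of a member and a group of 4 arrays, 9 held an array far from the other 3, where about 1 in 20 would do so by chance. Among the controls, Fosl2 was high in dflox replicate 4 (-0.39, the nearest at -0.97) and Gadd45b low in dflox replicate 1 (0.74, the nearest at 1.3). In GREmx1-cre, Junb and Arc were low in replicate 4 (4.33 against 4.61, and 3.78 against 4.2) and Ier3 was low in replicate 1 (-2.53 against -1.95). In MREmx1-cre, replicate 1 was low for Dusp6 (3.38 against 3.75) and Sik1 (-4.15 against -3.68) and high for Scg2 (1.49 against 1.14), and replicate 4 was low for Gem (-4.47 against -3.81). GRMREmx1-cre, with 3 arrays, was not examined in this way.

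The effect of losing 1 receptor differed with the presence of the other, by the limma interaction, for 2 members: Fosb (1.16 above the sum of the single differences) and Ier5 (0.42 above it), both with an adjusted p of 0.0465.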

How the results depend on the processing

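The 6 counts of members called were recomputed under each alternative. Without GR the count of 0 became 2 with the replicate block and 1 with an intensity trend in the variance prior, and it ranged from 0 to 6 with 1 array left out. Without MR the count of 11 became 3 when only the 2 groups were fitted and ranged from 6 to 13 with 1 array left out. Without both it was 8, 5 with no filter on dim probes and 4 to 10 with 1 array left out. Against GREmx1-cre the joint knockout had 10, 6 with no filter and 4 to 10 with 1 array left out. Against MREmx1-cre it had 0, but 1 with quantile normalization, 3 with normexp, 2 with the replicate block, 2 with the intensity trend, 1 when only the 2 groups were fitted and 0 to 2 with 1 array left out. The interaction had 2, but 0 with median scaling, 5 with normexp, 0 with no filter, 1 with the replicate block and 0 to 8 with 1 array left out. Omitting an array leaves fewer samples, and otherwise the cause was not tested. The other planned counts stayed within 1.5 times.

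The differences of the members named with their arrays made 1344 further comparisons with an alternative: 1163 kept their side of the threshold, 169 lost it, 12 gained it and 0 changed direction with a call. For same-numbered arrays of different groups, the correlation of their deviations from the group mean was -0.03 to 0.20 over 21 pairs (median 0.073, above 0.1 in 6). For differently numbered arrays it was -0.15 to 0.11 over 63 pairs (median -0.023, above 0.1 in 1). Of the 15 arrays, 14 correlated best with their own number, so arrays of 1 number shared a weak structure. The main model leaves it out, because nothing states what the number stands for, and its p-values carry that limit. The replicate block was run as an alternative. With the replicate block, 12 members were called without MR, 8 without both and 8 in the joint against the GR knockout. The block ended the interaction calls of Fosb (adjusted p = 0.0577) and Ier5 (0.0636), so its 1 call was neither, and it ended those of Arc without MR, Fbxo33 without both, and Atf3, Crem, Ier2 and Homer1 against the GR knockout. Nr4a3 and Pim1, above background on 5 and 10 arrays, are limited by signal. The normexp alternative used the median signal.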
